A study of Oryza sativa with 9 samples.

Results

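The leaves of 2 transgenic rice lines were compared with each other, the arrays labelled OE (overexpression of OsHMGB707) against the arrays labelled RNAi (RNA interference against the same gene). The arrays were chosen by their titles, 3 OE and 3 RNAi arrays, which are 6 of the 9 arrays measured. The other 3 are of wild-type plants (WT) and are used to say which line departs from WT and for the estimate of the spread. All plants were of the ZH11 background and were grown for 21 days in culture solution with no stress treatment, and leaf RNA was hybridised to Affymetrix rice arrays. According to the study's methods, the OE plants carry the full-length cDNA of OsHMGB707 behind a promoter of the cauliflower mosaic virus, and the RNAi plants carry copies of a segment of the gene behind a ubiquitin promoter in a different vector. Both promoters are known to act in most tissues. Seeds of both lines were selected on hygromycin in the stress experiments, whereas WT was not. The labels do not say which transformant was used, so all arrays of a line may come from the same insertion event, and each array is a pool of seedlings. Vector, insertion site and OsHMGB707 itself therefore cannot be told apart between the lines, and every p-value rests on the spread among pools of this kind.

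HMGB proteins are small, abundant nuclear proteins that hold an HMG box, bind the minor groove of DNA with little sequence preference and bend it, and in plants they are known as chromatin components that help other factors to assemble on DNA. The leaf of a young rice seedling is mainly photosynthetic tissue. Its dehydration responses run through DREB/CBF factors, which bind the dehydration-responsive element in promoters, through abscisic acid signalling by SnRK2 kinases and their inhibitors, the type 2C protein phosphatases, and through jasmonate signalling, in which JAZ proteins repress bHLH and MYC factors.

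Values are log2 RMA values, in which a difference of 1 is a 2-fold difference, and differences are OE minus RNAi throughout. Probe sets were called where the limma p, after Benjamini-Hochberg adjustment over all 57194 probe sets tested, was under 0.05, and per-array values are given in the order of replicates 1, 2 and 3. RMA compresses low levels, so folds of genes near the bottom of the scale are understated.

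OsHMGB707 (LOC4336676 on chromosome 4), the target of both constructs, was examined first. It read 12.25, 12.28 and 12.37 on the OE arrays and 10.31, 10.43 and 10.03 on the RNAi arrays, with no overlap between the lines. The difference was 2.04 (SE 0.09, adjusted p = 4.7e-06), or 4.12-fold. The WT arrays read 12.39, 12.38 and 12.38, so that the RNAi arrays differed from WT by -2.13 (adjusted p = 3.85e-06) and the OE arrays by -0.09 (adjusted p = 0.703). In this gene RNAi was the line that departed from WT, and the target does not back the OE label on these arrays. By qPCR the study reported more OsHMGB707 in several OE lines than in WT, and the labels do not say which line the arrays measured. OE means the arrays so labelled wherever it is written. A dimmer probe set of the gene read 6.28, 6.28 and 6.38 in OE and 5.92, 6.15 and 6.37 in RNAi, a difference of 0.17 (adjusted p = 0.563). Whether the introduced cDNA holds the part of the transcript that these probes measure was not tested.

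Array medians lay between 5.89 and 5.94. On the first principal component (35.1% of the variance) the OE arrays scored 26.7 to 38.0, the RNAi arrays -39.0 to -24.16 and the WT arrays -6.716 to 0.3342. On the second (20.7%) both lines lay below WT. The spread within groups, as the root mean square of the SDs of all probe sets, was 0.149 in OE, 0.179 in RNAi and 0.127 in WT. RNAi replicates 1 and 3 stood apart from the other arrays of their group at 410 and 340 probe sets by over 2-fold, against 27 for RNAi replicate 2 and 9 to 124 for the OE arrays. The labelled tissue was checked on 8 genes of photosynthesis, among them the chlorophyll-binding protein gene CAB2R and the Rubisco activase gene OsrcaA1. Of these, 7 read 11.25 to 14.3 on all OE and RNAi arrays and RBCS1 read 2.97 to 3.29, and none was called (differences -0.07 to 0.21). None of 9 genes of seed storage proteins and pollen expansins was called either, and 7 of them stayed below 6. The glutelin gene GLUA-2 read 9.28 to 9.48 and a prolamin gene 5.57 to 6.14 on the OE and RNAi arrays. No root gene was among the genes checked, and the study's methods speak of harvested seedlings. The check therefore cannot tell leaves from whole seedlings.

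**Figure D1:**
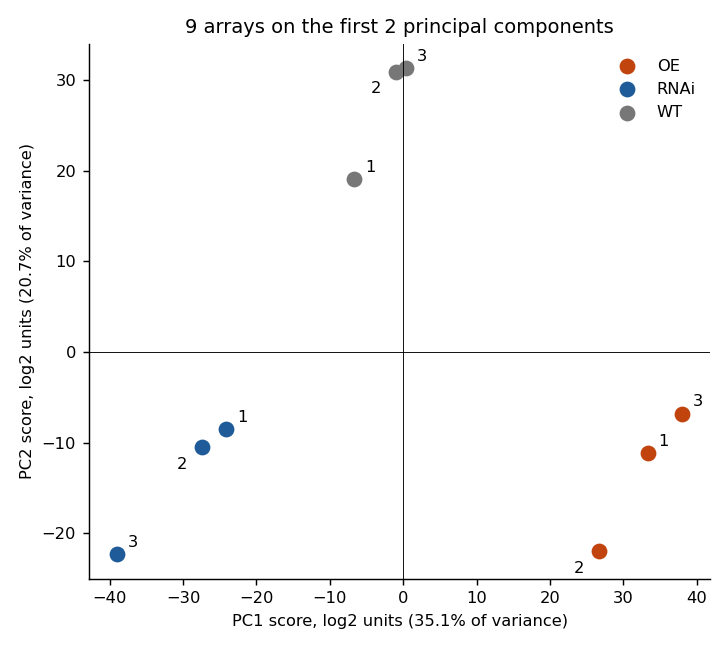
Scores of the 9 arrays on the first and second principal components of the log2 values (axes in log2 units, percent of variance in the axis labels; numbers are replicates). The OE and RNAi arrays lie at opposite ends of the first component with the WT arrays between them, and the WT arrays lie above both lines on the second.

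Between the lines 3521 probe sets were called, 6.16% of those tested. Of these 1796 were higher in OE (3.14%) and 1725 higher in RNAi (3.02%), so that neither direction dominated. Over 2-fold, 189 were higher in OE (0.33%) and 243 higher in RNAi (0.425%). The 3 OE arrays did not overlap the 3 RNAi arrays at 13263 probe sets (23.2%). With 1 probe set for each of 17905 genes, 1865 genes were called (10.4%), 890 higher in OE (4.97%) and 975 higher in RNAi (5.45%), which is the background for the gene groups below. These counts rest on few arrays. The total fell to 1805 with only the 6 OE and RNAi arrays in the fit and to 1623 without moderation of the variances (each probe set with its own variance), rose to 6310 with array weights, and was 1693 without OE replicate 1, 2238 without OE replicate 3 and 1881 without RNAi replicate 2. Of the 1805, 1756 were among the 3521.

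The place of WT was then examined for the 3521 probe sets. The WT mean lay between the means of the lines at 2829 of them (80.3%) and nearer to RNAi at 2379 (67.6%). OE alone was called against WT at 1179, RNAi alone at 154, both in opposite directions at 20, both in the same direction at 20 and neither at 2148. Over all 57194 probe sets OE was called against WT at 1680 (2.94%) and RNAi at 274 (0.479%). Both of these comparisons use the same WT arrays, and the difference between the departures of the 2 lines is the OE minus RNAi difference itself. Among probe sets over 2-fold higher in OE the WT mean was nearer to RNAi at 120 of 189 (63.5%), and among those over 2-fold higher in RNAi it was nearer to OE at 129 of 243 (53.1%). OE alone was called at 483 probe sets without OE replicate 1, at 679, 448 and 419 without WT replicates 1, 2 and 3, and at 732 without RNAi replicate 2. RNAi alone was called at 322 without RNAi replicate 1, at 71 without RNAi replicate 2, at 93 without OE replicate 1 and at 69 and 61 without WT replicates 2 and 3.

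**Figure D2:**
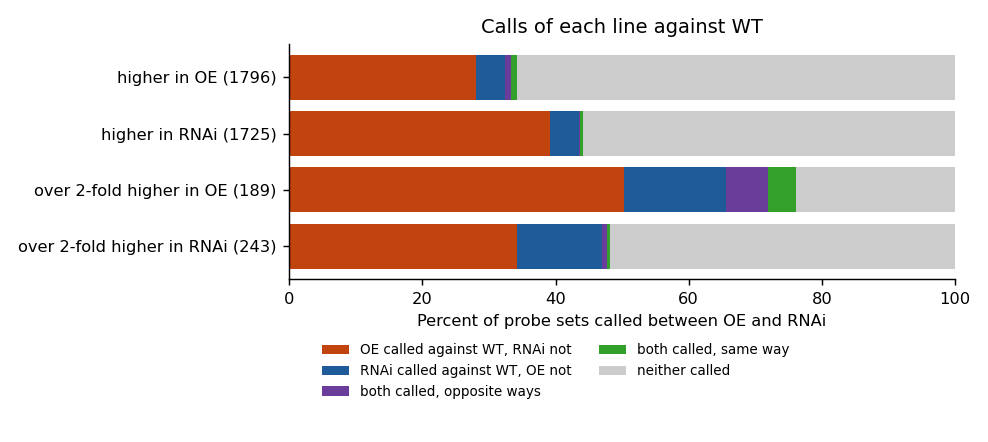
Percent of the probe sets called between OE and RNAi, by direction and by size, that were also called between OE and WT, between RNAi and WT, between both and WT, or neither (number of probe sets in brackets). The share with OE alone called is the largest of the called shares in every bar, and most probe sets of the first bar were called in neither line against WT.

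The DREB/CBF list had the largest share of genes called higher in OE among lists of at least 5 genes. Of 8 DREB/CBF genes, 4 were higher in OE and 1 higher in RNAi, with a median difference of 0.25 against -0.023 over all genes. The 3 not called were DREB2A, DREB2B and DREB2D (differences 0.00, -0.02 and 0.06), so the calls lay in genes named DREB1 or CBF. DREB1G (LOC_Os02g45450, chromosome 2) read 7.53, 7.93 and 7.48 in OE and 5.56, 5.01 and 4.97 in RNAi. The lines did not overlap, and the difference was 2.47 (SE 0.21, adjusted p = 0.00024). The WT mean of 6.13 lay between them, and OE was called against WT (adjusted p = 0.00548) whereas RNAi was not (adjusted p = 0.103). The probe set that the study assigns to OsDREB1C (LOC_Os06g03670) read 7.65, 7.80 and 7.56 in OE and 5.68, 5.35 and 4.89 in RNAi, a difference of 2.36 (SE 0.20, adjusted p = 0.00024). Here OE was above WT (adjusted p = 0.0251) and RNAi below it (adjusted p = 0.022). CBF3, on chromosome 9, read 11.00, 10.82 and 10.94 in OE against 10.07, 9.79 and 9.45 in RNAi and was 1.15 higher in OE (SE 0.16, adjusted p = 0.0032). These 3 calls held under every alternative run. DREB1B (0.65) and DREB1E (0.44) were also higher in OE. CBF1, whose synonyms in the gene table include DREB1C, was lower in OE than in RNAi at its own probe set (difference -0.34, adjusted p = 0.0227). Its other 2 probe sets differed by -0.38 and -0.04, and 1 of these was called in the same direction. None was higher in OE, unlike the probe set that the study assigns to OsDREB1C. Which of these probe sets measures that gene was not tested. The DREB1B call was lost when any of OE replicates 1, 2 and 3 or RNAi replicates 2 and 3 was left out, with the block on the replicate number and without moderation (highest adjusted p 0.101). The DREB1E call was lost when any of OE replicates 2 and 3 or of the RNAi replicates was left out, with only the 6 arrays of the lines and without moderation (highest 0.0911), and the CBF1 call when any of OE replicates 1 and 3 or RNAi replicates 1 and 3 was left out, with the block and with only the 6 arrays (highest 0.0806).

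An ethylene response factor gene outside this group (LOC_Os02g43840) read 6.52, 6.25 and 6.91 in OE and 4.69, 4.88 and 4.98 in RNAi. All OE arrays lay above all RNAi arrays, and the difference was 1.71 (SE 0.15, adjusted p = 0.000307). WT lay at 4.88, as low as RNAi. None of 6 other AP2/ERF genes with a symbol was called, and their differences ran from -0.05 to 0.26.

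Of 6 WRKY genes, 2 were higher in OE and none higher in RNAi. OsWRKY24, a WRKY factor known as a repressor of gibberellin and abscisic acid signalling in the rice aleurone, read 10.31, 10.78 and 10.24 in OE and 9.03, 8.84 and 8.73 in RNAi. The difference was 1.57 (SE 0.15, adjusted p = 0.000549), and it was RNAi that lay below WT (adjusted p = 0.0115). OsWRKY71, a related factor, read 12.41, 12.42 and 12.23 against 11.52, 11.51 and 11.59 and differed by 0.81 (adjusted p = 0.00114); its other probe set differed by 0.98. Of 12 bHLH genes with a symbol, only BHLH148 was called. This gene, whose protein binds JAZ proteins in rice, read 10.90, 11.11 and 10.65 in OE and 8.94, 9.21 and 9.42 in RNAi, a difference of 1.69 (SE 0.18, adjusted p = 0.000926), with RNAi below WT (adjusted p = 0.0294). MYB2, a stress-responsive MYB factor, was 0.80 higher in OE (adjusted p = 0.0102) and was the only called gene among 11 of its group; its call was lost without moderation (0.0688).

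**Figure D3:**
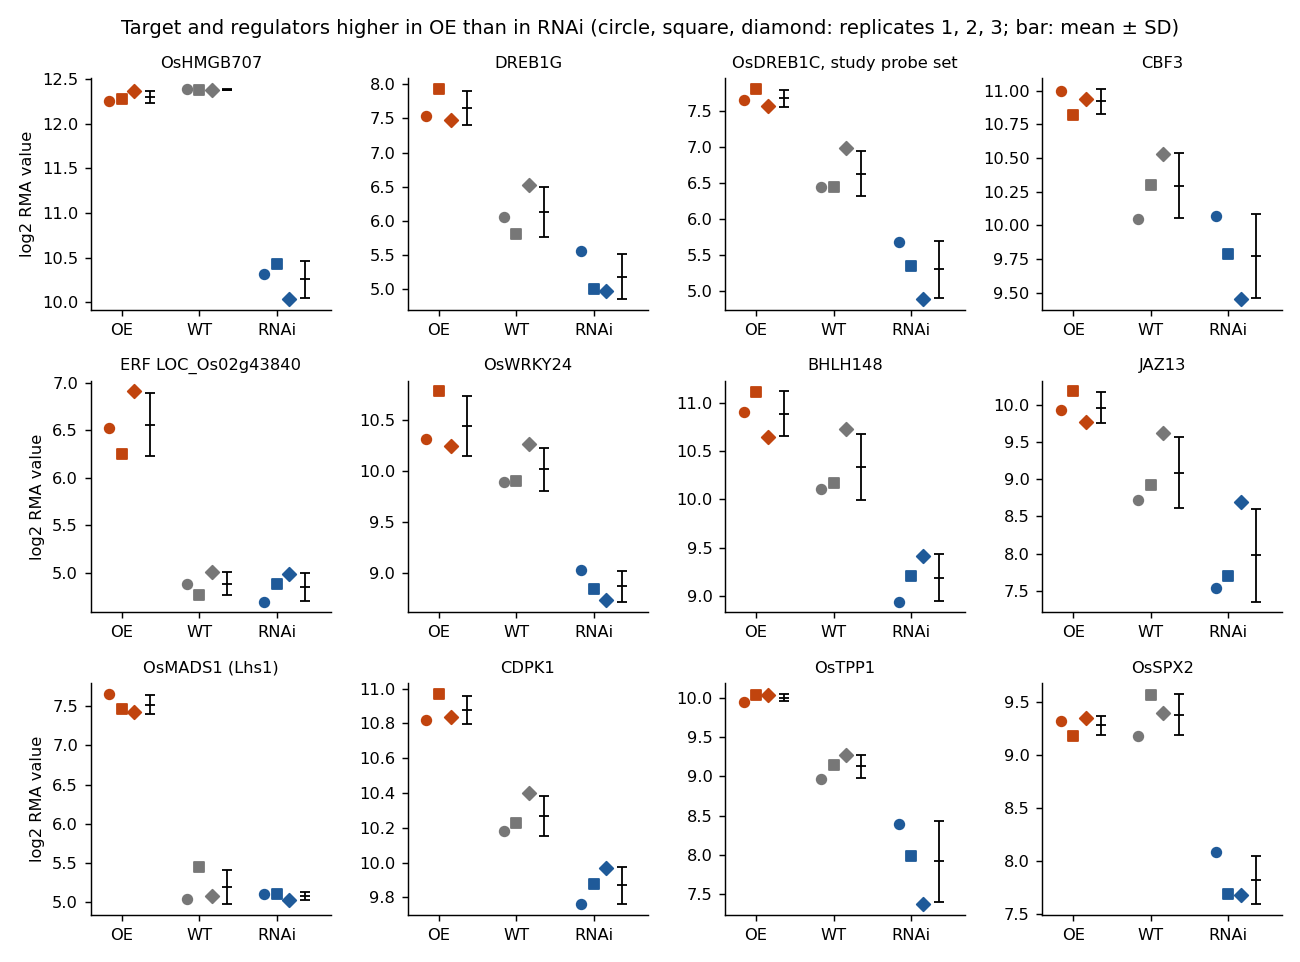
Log2 RMA values of 12 genes on each array (circle, square and diamond are replicates 1, 2 and 3; the bar is the group mean with its SD, n = 3) for OE, WT and RNAi. In every panel the 3 OE arrays lie above the 3 RNAi arrays; for OsHMGB707 and OsSPX2 the WT arrays lie with OE, and for the ERF gene and OsMADS1 they lie with RNAi.

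Of 17 JAZ and TIFY genes 4 were higher in OE and none higher in RNAi, while the median of the group was -0.0087. JAZ13 read 9.94, 10.19 and 9.78 in OE and 7.54, 7.69 and 8.70 in RNAi, a difference of 1.99 (SE 0.31, adjusted p = 0.00573), with the WT mean of 9.09 between them. The probe set annotated to JAZ2, which the study's table gives to another locus (LOC_Os05g36240), read 9.05, 9.55 and 10.09 against 7.55, 6.76 and 7.00. Its difference was 2.46 (SE 0.36, adjusted p = 0.00418), and the WT mean of 3.82 lay far below both lines, so both were called above WT (adjusted p = 4.15e-05 and 0.00308). JAZ10 was 0.79 higher in OE (adjusted p = 0.0175), and its other probe set also differed by 0.79. JAZ6 was 0.51 higher (adjusted p = 0.0432). The JAZ10 call was lost when OE replicate 1, OE replicate 2 or RNAi replicate 2 was left out (highest adjusted p 0.0655), and the JAZ6 call when any OE array, RNAi replicate 1, RNAi replicate 2 or WT replicate 2 was left out, with the block and with only the 6 arrays (highest 0.144). Without moderation of the variances none of the 4 JAZ genes was called (JAZ13 0.0593, JAZ2 0.0524, JAZ10 0.0939). Of 18 genes of jasmonate synthesis none was higher in OE and 2 were higher in RNAi, a share of 11.1% beside 10.4% of all genes, with a median of -0.049. AOS, the allene oxide synthase, read 10.31, 10.28 and 10.02 in OE and 10.78, 10.77 and 10.86 in RNAi, a difference of -0.60 (SE 0.09, adjusted p = 0.00624), with OE below WT (adjusted p = 0.00193). OPR7, a reductase of the same route, differed by -0.55 (adjusted p = 0.05 after rounding), and its call was lost in 13 of the 17 alternatives (highest 0.154), among them leaving out any array other than OE replicate 3.

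Abscisic acid genes were higher in OE where they were called. Of 22 genes of abscisic acid and dehydrins 5 were higher in OE and none in RNAi, and the median was 0.18. ABA8OX1, a hydroxylase that starts the breakdown of abscisic acid, read 10.49, 10.64 and 10.33 in OE and 9.79, 9.44 and 9.01 in RNAi. Its difference was 1.07 (SE 0.18, adjusted p = 0.00926), and ABA8OX2 of the same family differed by 0.68 (adjusted p = 0.00425). The dehydrin gene Dhn1, whose product protects membranes and proteins during water loss, read 10.46, 10.63 and 10.39 against 10.10, 9.54 and 9.71, a difference of 0.71 (adjusted p = 0.0122), while its other probe sets differed by 0.19 and 0.24. OsSAPK2, a SnRK2 kinase of abscisic acid signalling, was 0.48 higher in OE (adjusted p = 0.00419). Without moderation the calls of ABA8OX1 and Dhn1 were lost (0.07 and 0.0728).

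Of 56 genes of type 2C protein phosphatases 7 were higher in OE, 1 was higher in RNAi and 48 were not called, with a median of 0.017. The share called was 14.3%, beside 10.4% of all genes. OsPP2C61 read 9.39, 9.53 and 9.41 in OE and 8.76, 8.78 and 8.67 in RNAi, and differed by 0.71 (SE 0.07, adjusted p = 0.000734), with RNAi below WT (adjusted p = 0.00843). OsPP2C02 (0.59), OsPP2C35 (0.61) and ABIL1 (0.42) were higher in OE under every alternative. The gene called higher in RNAi was OsPP2C33, which read 6.18, 6.48 and 6.07 in OE and 8.01, 7.53 and 7.70 in RNAi, a difference of -1.51 (SE 0.15, adjusted p = 0.000677).

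Of 89 calcium signalling genes 11 were higher in OE and 3 higher in RNAi, 75 were not called, and the median was 0.013. The share called was 15.7%, beside 10.4% of all genes. The calcium-dependent protein kinase gene CDPK1 read 10.82, 10.97 and 10.84 in OE and 9.76, 9.88 and 9.97 in RNAi. The difference of 1.01 (SE 0.08, adjusted p = 0.000231) was the only one of the group past 2-fold, and OE was above WT (adjusted p = 0.00567). CPK13, another such kinase, read 12.25, 12.22 and 12.21 against 11.75, 11.65 and 11.61 and differed by 0.55 (adjusted p = 0.00107). The calcium pump gene ACA7 differed by 0.56 (adjusted p = 0.00407), with RNAi below WT (adjusted p = 0.031). Of 17 MAP kinase genes 3 were higher in OE, among them BIMK1 with 10.97, 10.97 and 10.71 against 10.17, 10.07 and 10.11, a difference of 0.77 (SE 0.11, adjusted p = 0.0038), and MPK15 with 0.64 (adjusted p = 0.00184).

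Several single genes of sugar, phosphate, oxygen and heat responses were also higher in OE. OsTPP1, a trehalose phosphate phosphatase gene, read 9.95, 10.03 and 10.03 in OE and 8.39, 7.99 and 7.37 in RNAi. Its difference was 2.09 (SE 0.21, adjusted p = 0.000549), RNAi was below WT (adjusted p = 0.039), and it was the only one of 9 trehalose genes called. OsSPX2, whose product holds back the phosphate starvation factor OsPHR2, read 9.32, 9.18 and 9.35 against 8.08, 7.69 and 7.68. The difference was 1.47 (SE 0.13, adjusted p = 0.000275), and the departing line was RNAi (adjusted p = 0.000466 against WT), with OE at the WT level (adjusted p = 0.755). The non-symbiotic haemoglobin gene NSHB2 read 7.68, 8.08 and 7.45 in OE and 6.15, 6.42 and 6.91 in RNAi, and differed by 1.24 (adjusted p = 0.00863, or 0.0694 without moderation), with OE above WT (adjusted p = 0.00272).

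Of 56 genes on the list of heat shock factors and proteins 4 were higher in OE and 2 higher in RNAi. The 4 include ARD1, which its synonyms placed on the list and which the study's annotation describes as the dioxygenase of methionine salvage. ARD1 read 9.84, 9.40 and 9.93 in OE and 8.21, 8.69 and 8.38 in RNAi, a difference of 1.30 (SE 0.17, adjusted p = 0.00225), and its other probe set differed by 0.09. HSF07 read 9.62, 9.59 and 9.74 in OE and 8.67, 8.64 and 8.61 in RNAi, a difference of 1.01 (SE 0.07, adjusted p = 6.01e-05). HSP16.9A (LOC_Os01g04370), a small heat shock protein of the cytosol, read 8.06, 7.80 and 8.23 against 6.93, 6.75 and 6.42 and differed by 1.33 (SE 0.14, adjusted p = 0.000829). A DnaJ co-chaperone gene (LOC_Os01g42190) read 10.06, 10.33 and 9.91 against 8.94, 9.24 and 9.38, a difference of 0.91 (SE 0.15, adjusted p = 0.00787, or 0.0614 without moderation). In HSF07, HSP16.9A and the DnaJ gene it was OE that was called against WT (adjusted p = 0.00133, 0.00178 and 0.00587). The group as a whole had a median of -0.017 and 10.7% of its genes called, beside 10.4% of all genes.

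Some genes known for roles in flowers and meiosis were higher in these OE leaves than in RNAi. Of 31 MADS-box genes 6 were higher in OE and 1 higher in RNAi, with a median of 0.051. OsMADS1 (Lhs1, chromosome 3), a specifier of floral organs, read 7.66, 7.47 and 7.43 in OE and 5.10, 5.10 and 5.02 in RNAi. The difference was 2.45 (SE 0.11, adjusted p = 3.5e-06), and WT lay with RNAi at 5.19. MADS58, a carpel gene, read 5.31, 5.08 and 5.66 against 4.47, 4.29 and 3.92 and differed by 1.12 (SE 0.17, adjusted p = 0.0053, or 0.0532 without moderation). DMC1, the meiotic recombinase, read 7.27, 7.30 and 7.46 against 6.11, 6.36 and 6.44, a difference of 1.04 (SE 0.10, adjusted p = 0.000484). In OsMADS1, MADS58 and DMC1 OE was called against WT and RNAi was not, and the pollen and seed genes checked above were not called. In pooled leaf tissue, more cells that express a gene and more RNA per cell cannot be told apart.

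Of 57 genes of DNA replication, cyclins and meiosis 8 were higher in OE and 3 higher in RNAi, with a median of 0.083. The share called was 19.3%, beside 10.4% of all genes. MCM2, a subunit of the replicative helicase, read 7.28, 7.41 and 7.24 in OE and 6.67, 6.61 and 6.79 in RNAi, a difference of 0.62 (SE 0.07, adjusted p = 0.00132), with RNAi below WT (adjusted p = 0.0452). Of 27 genes of RNA silencing 3 were higher in OE and 4 higher in RNAi. The Argonaute genes AGO17 (0.86, adjusted p = 0.00153) and AGO1D (0.48, adjusted p = 0.00485) were higher in OE. SHL2, the RNA-dependent RNA polymerase of trans-acting siRNA synthesis, read 7.30, 7.16 and 7.04 in OE and 7.68, 7.80 and 8.05 in RNAi, a difference of -0.68 (SE 0.10, adjusted p = 0.00522). DRB1, the partner of DICER-LIKE1 in miRNA processing, differed by -0.43 (adjusted p = 0.01).

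**Figure D4:**
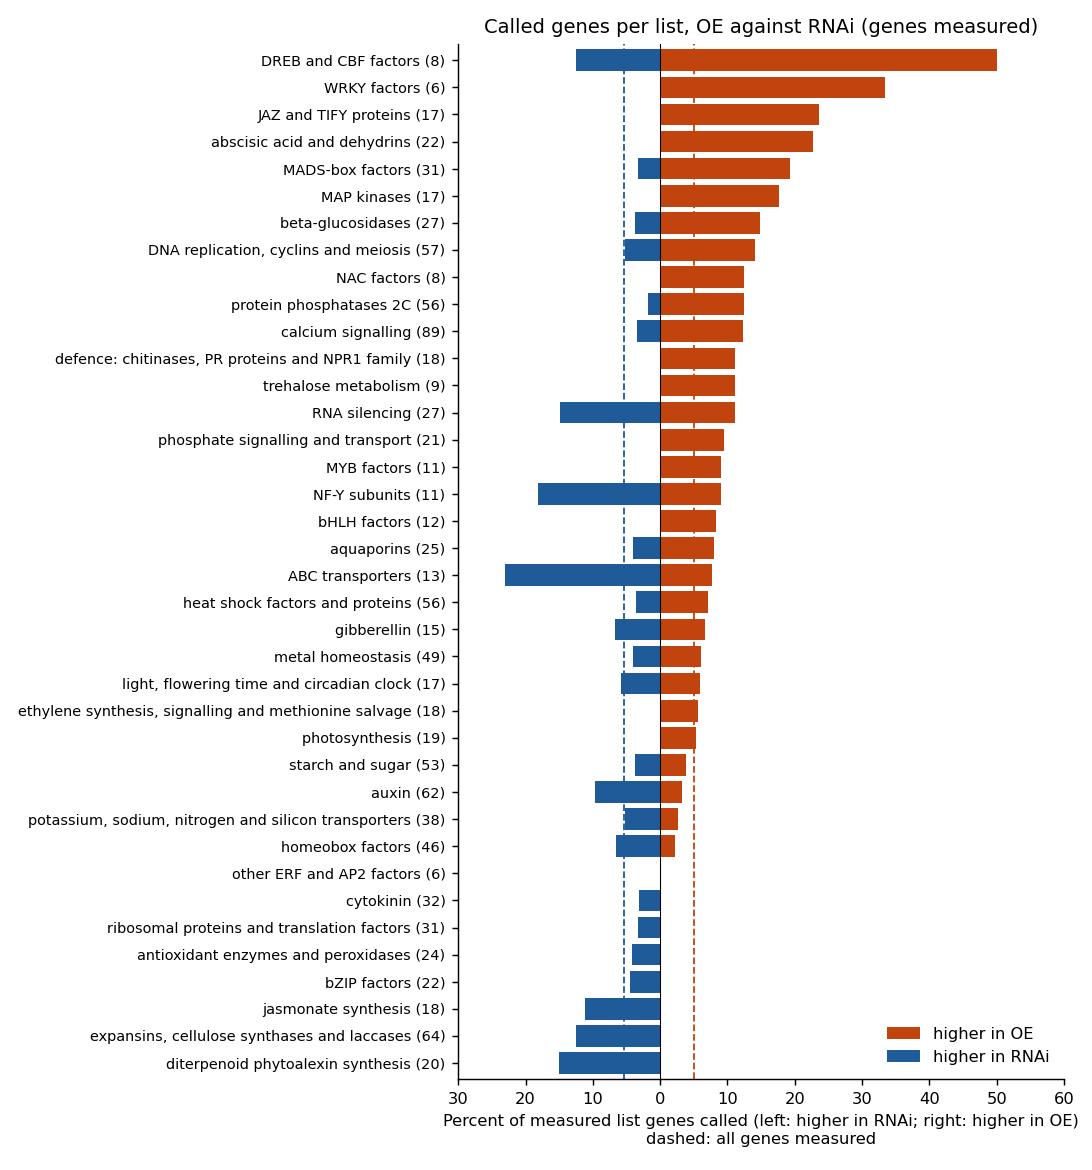
Percent of the measured genes of each list with at least 5 of them that were called higher in OE (right) or higher in RNAi (left), with the number of genes in brackets; dashed lines mark the shares over all genes measured, 4.97% and 5.45%. The DREB and CBF, WRKY, JAZ, abscisic acid and MADS-box lists reach furthest to the right, and the ABC transporter, NF-Y and diterpenoid lists furthest to the left; many lists hold few genes.

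In the other direction, genes of proteins of the plant surface were among those with the largest differences higher in RNAi. The study's annotation describes 107 of the probe sets over 2-fold higher in RNAi, and 18 of these are lipid transfer proteins, GDSL lipases, ketoacyl-CoA synthases or other lipid or cell wall proteins, against 3 of 83 described probe sets over 2-fold higher in OE. This grouping was made after the values were seen, from descriptions that the study made for genes it chose on these samples. It holds 8 lipid transfer proteins, 4 GDSL lipases, 2 ketoacyl-CoA synthases, which lengthen the fatty acids of cuticular wax, and 2 proteins of the Ole e I family of extracellular proteins. The proteins called lipid transfer proteins here are described as members of a family that also takes in protease inhibitors and seed storage proteins. LOC4348119 (Ole e I family, chromosome 10) read 3.42, 3.34 and 3.27 in OE and 10.40, 8.35 and 8.69 in RNAi, a difference of -5.81 (SE 0.68, adjusted p = 0.00132). Its other probe set differed by -4.44, and RNAi was above WT (adjusted p = 0.0133). The GDSL lipase gene LOC4331137 read 4.50, 5.06 and 4.35 against 9.43, 7.90 and 8.25, a difference of -3.89 (SE 0.40, adjusted p = 0.000677). LOC4342533, a lipid transfer protein gene, read 6.78, 7.41 and 7.32 against 9.87, 8.97 and 8.42 and differed by -1.92 (adjusted p = 0.00741, or 0.0675 without moderation), with OE below WT (adjusted p = 0.0213).

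RNAi replicate 1 was the highest of the RNAi arrays in 14 of these 18 probe sets, against 116 of all 243 over 2-fold higher in RNAi. Without it the 18 differences ran from -5.18 to -1.05 in place of -5.81 to -1.09, and 16 of the 18 were called. LOC9270480 and LOC4340682 were not (adjusted p = 0.0505 and 0.0726). The ketoacyl-CoA synthase gene LOC4323946 read 4.66, 5.34 and 3.94 in OE and 9.49, 8.32 and 8.32 in RNAi, a difference of -4.06 (SE 0.78, adjusted p = 0.0158), which was not called when OE replicate 1 or OE replicate 3 was left out or without moderation (highest adjusted p 0.101). LOC4327106 (MFS18) read 6.70, 7.49 and 6.42 against 11.38, 9.68 and 9.69, a difference of -3.38 (adjusted p = 0.0161), and lost its call in the same settings (highest 0.102). WT lay nearer to OE in 12 of the 18, and 4 were called between RNAi and WT. WT replicate 1 was the highest WT array in 12 of the 18 and lay above every OE array in 17. In LOC4323946 the WT arrays read 7.62, 4.03 and 4.85, in LOC4327106 8.75, 6.35 and 6.40, and in LOC4348119 5.93, 3.60 and 3.25. Without WT replicate 1, 17 of the 18 were called between the lines, WT again lay nearer to OE in 12, and 8 in place of 4 were called between RNAi and WT. The part of these single arrays in the result was not tested.

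**Figure D5:**
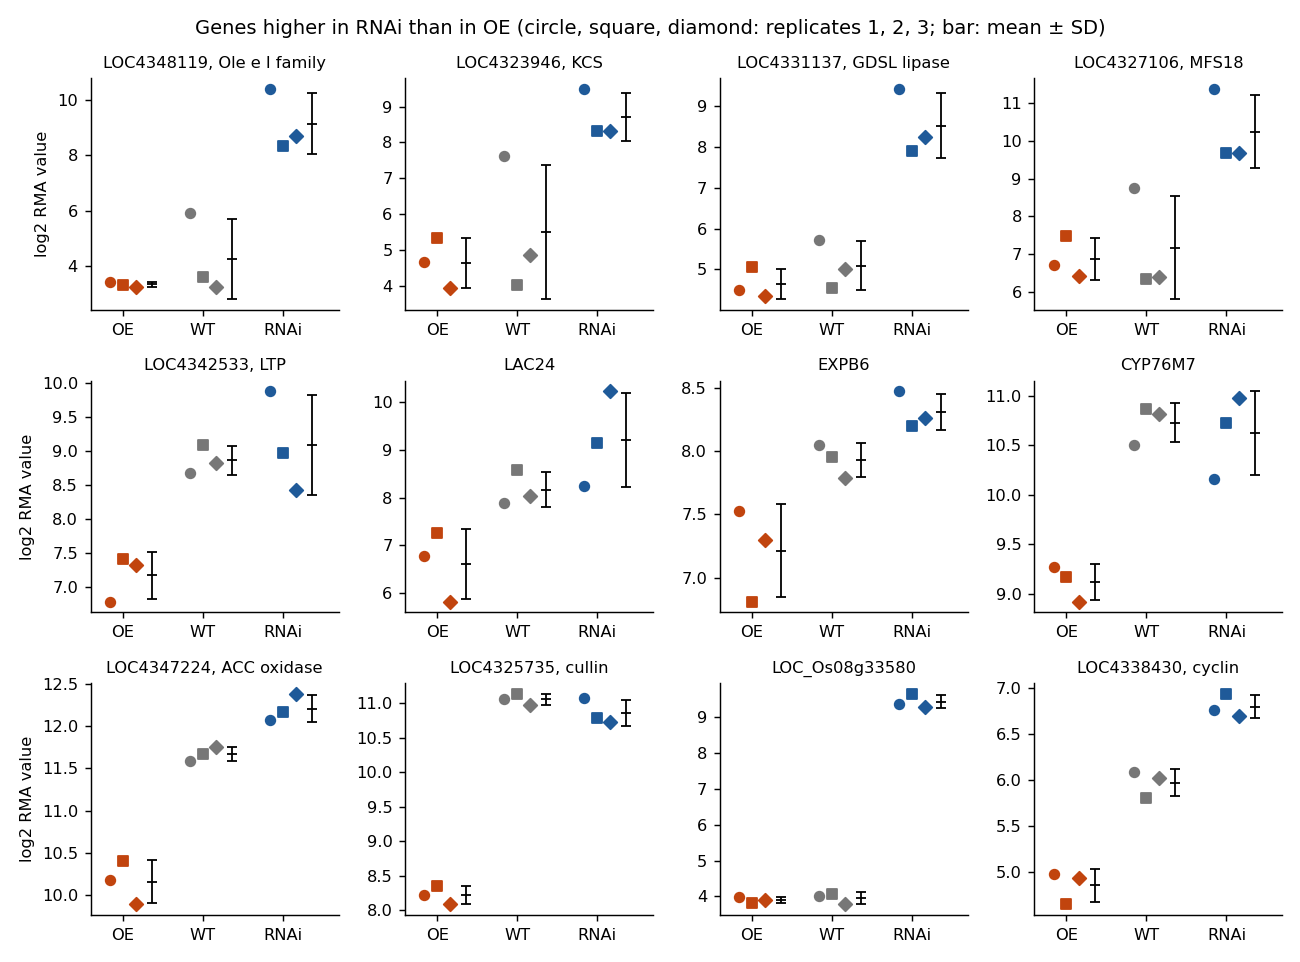
Log2 RMA values of 12 genes higher in RNAi than in OE on each array (circle, square and diamond are replicates 1, 2 and 3; the bar is the group mean with its SD, n = 3). The lines do not overlap in any panel; RNAi replicate 1 is the highest RNAi array in the first 5 panels, and WT lies with RNAi for CYP76M7 and the cullin gene and with OE for LOC_Os08g33580.

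Of 64 expansins, cellulose synthases and laccases none was higher in OE, 8 were higher in RNAi and 56 were not called. That is 12.5% called against 10.4% of all genes, and the median of the list was -0.018. LAC24, which is also among the 18 probe sets above and is of the laccases that oxidise lignin precursors, read 6.78, 7.25 and 5.81 in OE and 8.25, 9.14 and 10.23 in RNAi, a difference of -2.59 (SE 0.48, adjusted p = 0.0128). LAC3 read 5.87, 6.67 and 5.59 against 8.03, 7.31 and 7.37 and differed by -1.53 (SE 0.26, adjusted p = 0.00966). EXPB6, an expansin that loosens the wall, read 7.53, 6.81 and 7.30 against 8.47, 8.20 and 8.26, a difference of -1.09 (SE 0.16, adjusted p = 0.00464). EXPB7 (-0.80) and EXP5 (-0.75) were also higher in RNAi, and no cellulose synthase was called. The WT mean lay between the lines in LAC24, LAC3 and EXPB6. Without moderation the calls of LAC24, LAC3 and EXPB7 were lost (0.0921, 0.0758 and 0.0631).

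Of 20 genes of diterpenoid phytoalexin synthesis none was higher in OE and 3 were higher in RNAi, with a median of -0.43, the lowest of the 39 lists. The share called was 15%, beside 10.4% of all genes. CYP76M7, a P450 of phytocassane synthesis, read 9.27, 9.17 and 8.92 in OE and 10.16, 10.73 and 10.98 in RNAi. The difference was -1.50 (SE 0.19, adjusted p = 0.00216), and it was OE that lay below WT (adjusted p = 0.00236). CYP71Z7 differed by -1.59 (adjusted p = 0.0372), and its call was lost when any OE array, RNAi replicate 2, RNAi replicate 3, WT replicate 2 or WT replicate 3 was left out and in 4 other settings (highest adjusted p 0.152). CYP701A9 differed by -1.31 (adjusted p = 0.0247), and its call was lost when any OE array or RNAi replicate 2 was left out, with only the 6 arrays and without moderation (highest 0.123).

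Auxin genes were called higher in RNAi in 6 and higher in OE in 2 of 62. This is 12.9% called, not far from the 10.4% of all genes, and the median was -0.04 against -0.023 over all genes. GH3.6, of the enzymes that join amino acids to auxin or jasmonate, read 6.91, 6.79 and 6.51 in OE and 7.70, 7.79 and 8.28 in RNAi. It differed by -1.19 (SE 0.15, adjusted p = 0.00238), with OE below WT (adjusted p = 0.00954). OsPIDlike, related to the PINOID kinase of auxin transport, read 6.02, 5.79 and 6.18 against 7.01, 7.08 and 6.80, a difference of -0.96 (adjusted p = 0.00163), but its other probe set differed by 0.03. An ACC oxidase gene (LOC4347224, LOC_Os09g27750), which catalyses the last step of ethylene synthesis, read 10.18, 10.40 and 9.89 in OE and 12.07, 12.16 and 12.38 in RNAi. That is a difference of -2.05 (SE 0.13, adjusted p = 3.71e-05), and OE was the line called against WT (adjusted p = 0.000334).

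OE likewise departed from WT in several other genes higher in RNAi. A cullin gene (LOC4325735), of the scaffold of ubiquitin ligases, read 8.22, 8.36 and 8.09 in OE and 11.07, 10.79 and 10.72 in RNAi, with a WT mean of 11.06. The difference was -2.63 (SE 0.11, adjusted p = 1.79e-06), but the other probe set of the gene differed by -0.06. HAP2A, a subunit of the CCAAT-binding factor NF-Y, read 5.06, 5.14 and 5.02 against 5.98, 6.31 and 6.48, a difference of -1.18 (SE 0.11, adjusted p = 0.000432). Its partner subunit gene HAP3F went the other way, with 8.87, 8.89 and 8.97 in OE and 8.31, 8.32 and 8.32 in RNAi (difference 0.59, SE 0.06, adjusted p = 0.000536). A cyclin gene (LOC4338430) read 4.98, 4.65 and 4.94 against 6.76, 6.94 and 6.70 and differed by -1.94 (SE 0.11, adjusted p = 2.18e-05), with OE below WT and RNAi above it (adjusted p = 0.000972 and 0.0124). Its other probe set differed by -1.37.

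Several of the largest differences lay in probe sets with no gene, or no gene of known function, in the annotation. BGIOSGA029749 read 8.77, 8.50 and 8.95 in OE and 4.19, 4.13 and 3.89 in RNAi, a difference of 4.67 (SE 0.12, adjusted p = 9.29e-08), with WT at 4.01. LOC_Os07g06834 read 11.93, 12.21 and 11.86 against 7.95, 7.75 and 7.95, a difference of 4.12 (adjusted p = 1.28e-06), and both lines lay above the WT mean of 6.36. In the other direction a zinc knuckle gene (LOC_Os08g33580) read 3.99, 3.81 and 3.89 in OE and 9.38, 9.65 and 9.28 in RNAi, a difference of -5.54 (SE 0.11, adjusted p = 2.63e-08), with WT at 3.96. Os09g0463800 and Os02g0772100 differed by -4.38 and -3.68, and in both the RNAi arrays alone stood apart. A gene described as a beta-amylase (LOC_Os07g35940) read 8.44, 5.74 and 9.59 in OE and 4.35, 4.40 and 3.71 in RNAi, so that OE replicate 2 was far below the other OE arrays. Its difference of 3.77 (SE 0.75, adjusted p = 0.0181) was not called when OE replicate 1, RNAi replicate 2 or RNAi replicate 3 was left out, with only the 6 arrays or without moderation (highest adjusted p 0.108). LOC4343628, of unknown function, read 5.17, 6.21 and 4.53 in OE, 10.66, 9.29 and 9.07 in RNAi and 8.22, 4.94 and 4.89 in WT, a difference of -4.37 (adjusted p = 0.0151) that was not called when OE replicate 1 or OE replicate 3 was left out (highest 0.0617) or without moderation (0.0993). LOC9268976 differed by 2.84 (adjusted p = 2.65e-05), and a probe set described as a retrotransposon protein by 2.44 (adjusted p = 1.66e-05). The 4 remaining probe sets of largest difference have no gene in the annotation and differed by 4.10, 2.74, -4.12 and -3.76. Each was called under every alternative that gave a value. By their probe set names, those at -4.12 and -3.76 belong with the probe sets of Os09g0463800 and LOC_Os08g33580 above. They need not be separate transcripts. Of the 3521 called probe sets 1342 (38.1%) had no gene in the annotation.

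Some of the named genes with the largest differences have not been described above. OsMac1 read 8.16, 8.00 and 8.12 in OE and 7.04, 6.87 and 6.74 in RNAi, a difference of 1.21 (SE 0.09, adjusted p = 0.000124), with OE above WT (adjusted p = 0.00305). AT15, of the BAHD acyltransferases that acylate wall components and metabolites, read 9.66, 9.49 and 9.85 against 8.44, 8.33 and 8.43 and differed by 1.27 (SE 0.17, adjusted p = 0.00247). The calls of the others were lost under several alternatives. BURP2, of the plant BURP-domain proteins, differed by 1.81 (adjusted p = 0.0376) and lost its call in 9 of the 17 alternatives, which leave out OE replicate 1, OE replicate 2, RNAi replicate 2, RNAi replicate 3 or WT replicate 3 or change the fit (highest 0.153). NAS2, a nicotianamine synthase of iron transport, read 5.43, 5.67 and 5.80 in OE and 6.29, 8.22 and 7.35 in RNAi. Its difference of -1.66 (adjusted p = 0.0412) lost its call in 11 alternatives, among them leaving out any OE array, RNAi replicate 2 or 3, or WT replicate 2 or 3 (highest 0.159). EXPB4, an expansin counted above, differed by -1.09 (adjusted p = 0.0427) and lost its call in 9, among them leaving out any OE array, RNAi replicate 1 or 2, or WT replicate 2 or 3 (highest 0.158). BLE3, a gene known to respond to brassinolide, differed by -1.10 (adjusted p = 0.0246) and lost its call in 5, among them leaving out OE replicate 1, OE replicate 3 or RNAi replicate 2 (highest 0.12). OsCASPL1B1, of a family of CASP-like membrane proteins, differed by -1.16 (adjusted p = 0.035) and lost its call in 10, among them leaving out OE replicate 1 or 3, any RNAi array, or WT replicate 1 or 3 (highest 0.145).

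Further loci that the study names were read at the probe sets it gives. The peroxidase gene LOC_Os07g48020 read 11.60, 11.34 and 11.18 in OE and 10.05, 10.04 and 10.54 in RNAi, a difference of 1.16 (SE 0.15, adjusted p = 0.00214), with RNAi below WT (adjusted p = 0.00867). Its neighbour LOC_Os07g48010 read 7.67, 7.41 and 6.83 against 6.83, 5.81 and 7.16, and the lines overlapped (difference 0.70, adjusted p = 0.233). Another peroxidase locus, LOC_Os02g14430, was not called between the lines at either probe set (differences -0.27 and -0.08). Both lines lay below WT there, with means of 8.53 in OE, 8.80 in RNAi and 10.28 in WT at the first probe set. OE was called against WT at that probe set (adjusted p = 0.0483) and RNAi was not (adjusted p = 0.169). At the second the means were 7.57, 7.65 and 9.15, and neither line was called against WT (adjusted p = 0.059 and 0.144). The sulfotransferase gene LOC_Os08g14190 read 7.09, 7.21 and 6.70 against 5.56, 5.85 and 5.83 and differed by 1.26 (SE 0.14, adjusted p = 0.00088). OsDOF7 (LOC_Os02g15350), a DOF zinc finger factor gene, read 7.89, 7.68 and 7.45 in OE and 7.18, 7.04 and 7.56 in RNAi. The lines overlapped and the difference was 0.41 (adjusted p = 0.268), while the WT mean of 3.62 lay far below both. A B3-domain gene (LOC_Os03g06850), which the study's text does not name, was picked from the values. It read 8.91, 9.54 and 8.87 against 6.71, 6.90 and 7.19 and differed by 2.18 (SE 0.19, adjusted p = 0.000314), with RNAi below WT (adjusted p = 0.00172).

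Several lists, those of photosynthesis and ribosomal proteins among them, showed few calls. Of 19 photosynthesis genes with a symbol 1 was called higher in OE, and the differences ran from -0.09 to 0.72 with a median of 0.11. Of 31 ribosomal protein and translation factor genes 1 was higher in RNAi, with a range of -0.25 to 0.24. Of 32 cytokinin genes 1 was called, CKI1, which in rice is known as a casein kinase rather than a cytokinin receptor kinase. Of 24 antioxidant and peroxidase genes matched by symbol 1 and of 22 bZIP genes 1 was higher in RNAi and none higher in OE. All of these shares were below the 10.4% of all genes. Peroxidase loci outside the symbol list were called in both directions. LOC_Os03g22020 (-1.90, adjusted p = 0.0211) and LOC_Os04g59190 (-1.82, adjusted p = 0.0227) were higher in RNAi. Their calls were lost in 4 and 7 alternatives (highest 0.115 and 0.119). LOC_Os07g48020 above was higher in OE (1.16), whereas LOC_Os07g48010 and LOC_Os02g14430 were not called.

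Called genes were spread over the genome. Between 9.25% (chromosome 9) and 12.3% (chromosome 11) of the genes of a chromosome were called. Runs of at least 3 neighbouring measured genes called in the same direction held 26 genes in 8 runs. The longest were 4 genes on chromosome 8 higher in OE (LOC4345024 to LOC4345032, the last being the sulfotransferase gene above) and 4 on chromosome 12 higher in RNAi (LOC4351981 to LOC4351984, differences -0.73 to -0.47). A run on chromosome 7 held LOC4342533 and LOC4342534, neighbouring lipid transfer protein genes that differed by -1.92 and -1.64. Without OE replicate 1, OE replicate 3, RNAi replicate 2, RNAi replicate 3 or WT replicate 3, the runs held 9, 10, 4, 13 and 13 genes.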

How the data were processed

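The authors deposited 1 table of log2 values from Affymetrix rice arrays, which their processing notes credit to RMA (background correction, quantile normalization and summary of the probes of a set; version not given in the sources used here). Quantile normalization would reduce a change shared by most transcripts. Of 57381 probe sets, 187 for array controls and reporters were not tested. With R 4.3.3 and limma 3.58.1 group means were fitted over all 9 arrays (6 residual and 3.78 prior degrees of freedom), and OE minus RNAi was tested two-sided. With 3 arrays per group, their number limits the precision. Groups and replicate numbers are those of the labels.

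Symbols came from the platform annotation (1 gene for 22436 probe sets, 2457 genes with a name that is no locus number), locus numbers and descriptions from the study's tables. Gene lists are patterns on symbols, with the probe set of highest mean per gene. They were rewritten once the gene table could be read. Members and lists were chosen with earlier results of these data known. The text names OsHMGB707, the 15 named genes and 10 probe sets of largest called difference in each direction (those with no annotation by their values alone), the study's loci, and examples of the called list members; the grouping of surface proteins and the genes with a locus number and a description were picked from the values. The same steps recovered known differences in simulated data.

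Alternatives were the 6 line arrays alone, the replicate number as a block, arrays centred on their medians, a filter on low values, control probe sets kept, trended and robust eBayes, an unmoderated test, array weights, and each array left out. A planned comparison with genes of proteins like OsHMGB707 was not run, and no coordinates or sequences were used here.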

Additional observations from a re-analysis of the deposited data

Results flagged for a closer look

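A reporter probe set of the array, left out of the tests, read 4.15, 4.15 and 4.22 on the WT arrays, 13.23, 12.94 and 13.48 on the OE arrays and 10.40, 11.77 and 10.06 on the RNAi arrays. It was singled out as signal outside the main measurement, 9.04 above WT in OE and 6.57 above WT in RNAi. Every transgenic array lay above every WT array, and OE lay 2.47 above RNAi (adjusted p = 0.00387 with these probe sets kept in the fit). The sequence it measures was not annotated in the tables used here.

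At 20 probe sets OE and RNAi were each called against WT in opposite directions, and the 8 of these with a gene name that is no locus number, or a locus in the study's tables, were singled out; the difference between the 2 departures is the OE minus RNAi difference and was called in each. OE lay above WT and RNAi below it in CIGR1, a GRAS factor gene induced by chitin fragments and gibberellin (0.95), in OsRIBA2 of riboflavin synthesis (0.92), in LOC4335780, described as a glycosyl hydrolase (1.91), in LOC4328907 (2.32), in Os12g0290200 (1.49), at the probe set of a retrotransposon protein LOC_Os01g26240 (2.44) and at that of OsDREB1C, LOC_Os06g03670 (2.36). The cyclin gene LOC4338430 went the other way (-1.94). No probe set annotated to CBF1, whose synonyms include DREB1C, was higher in OE than in RNAi. Of the 4 other probe sets of LOC4335780 the differences ran from -0.02 to 2.08.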

How the results depend on the processing

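Among 221 called probe sets named under the rule, 112 were called under each of the 17 alternatives that gave a value, and of 3712 values under alternatives 3074 kept the call, 638 lost it and 0 changed direction; 1084 probe sets of all were called under each. Counts moved by over 1.5 times under the settings and exclusions below, and the cause was not tested except where fewer arrays were fitted. With only the 6 arrays of the lines 1805 were called (947 higher in OE, 858 in RNAi), with 85 list members and 7 genes in runs. The unmoderated test called 1623 (830 and 793; 98 over 2-fold higher in RNAi), with 1200 nearer RNAi in WT, 517 called in OE alone and 34 in RNAi alone, 65 list members and 3 genes in runs. Array weights, which were 0.54, 2.02 and 0.49 for the RNAi arrays, called 6310 (3267 and 3043), with 3864 nearer RNAi, 2348 in OE alone, 662 in RNAi alone, 216 list members and 87 in runs. Leaving out each array in turn gave 1693 to 4141 called, 874 to 2018 higher in OE, 819 to 2123 higher in RNAi, 174 to 226 and 151 to 300 over 2-fold, 1211 to 2259 nearer RNAi in WT, 419 to 1185 called in OE alone, 61 to 322 in RNAi alone, 76 to 147 list members and 4 to 31 genes in runs. The share with WT nearer RNAi ran from 54.6% without RNAi replicate 1 to 73.9%. Replicate numbers did not pair the samples: deviations of OE and RNAi arrays of the same number correlated at -0.08, -0.08 and -0.33. With the number as a block 2455 were called, 687 in OE alone, with 16 genes in runs. All results rest on 3 pools per group and on values that RMA compresses at low levels.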

Other observations

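Single genes of several smaller groups also differed between the lines; the shares called in these groups were 8.7% for homeobox genes, 11.1% for the defence group, 12% for aquaporins and 18.5% for beta-glucosidases, beside 10.4% of all genes. Of 27 beta-glucosidases, enzymes that release sugars from glycosides of hormones, lignin precursors and defence compounds, 4 were higher in OE and 1 higher in RNAi. BGLU3 read 10.22, 10.30 and 10.32 in OE and 9.36, 9.39 and 9.38 in RNAi, a difference of 0.90 (SE 0.08, adjusted p = 0.000275), and OE was called above WT (adjusted p = 0.00254). BGLU5 read 8.60, 8.34 and 8.82 against 7.27, 7.81 and 7.55 and differed by 1.04 (SE 0.15, adjusted p = 0.00444), and BGLU28 differed by 0.65 (adjusted p = 0.00274). Of 18 chitinases, PR proteins and genes of the NPR1 family 2 were higher in OE, among them NPR4 with 8.11, 8.41 and 8.05 against 7.32, 7.56 and 7.67 (difference 0.68, adjusted p = 0.00905, or 0.058 without moderation of the variances).

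Of 25 aquaporins 2 were higher in OE and 1 higher in RNAi. OsPIP2;2, a water channel of the plasma membrane, read 11.80, 11.60 and 11.93 in OE and 11.29, 11.24 and 11.26 in RNAi, a difference of 0.51 (adjusted p = 0.0109, or 0.0528 without moderation), with OE above WT (adjusted p = 0.00935). Of 46 homeobox genes 1 was higher in OE and 3 higher in RNAi. HOX2 read 6.42, 6.45 and 6.59 in OE and 8.22, 7.34 and 7.13 in RNAi, so that RNAi replicate 1 was the highest array, and its difference of -1.07 (adjusted p = 0.024) was not called when any OE array was left out (highest adjusted p 0.0882), with only the 6 arrays of the lines (0.0768) or without moderation (0.118). NAR2.2, a partner protein of nitrate transporters, read 7.85, 7.39 and 8.28 in OE and 8.90, 8.89 and 8.86 in RNAi, a difference of -1.04 (adjusted p = 0.0184) that was not called when OE replicate 1 or RNAi replicate 2 was left out (highest 0.0658) or without moderation (0.101).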
